A study of Oryzias latipes with 6 samples.

Results

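Among transcripts raised at least 1.5-fold in hearts of medaka that lack AXER, 17 stayed under 1.5 times WT with active XBP1 in WT medaka. These 17 were followed across 6 genotypes, although the same conditions kept only 12 of them after TMM normalization. Hearts carrying active ATF6α entered the choice of the 17 only through the mean level over all libraries. In these hearts, 13 of the 17 were called higher without AXER than with it, and none was called lower. Of all transcripts tested, which include some below the level required of the 17, 0.465% were called higher and 0.138% lower. Such a rise was not particular to the 17, since 24 of the 33 other transcripts raised in KO hearts were also called higher there. The median return of the 17 towards WT in KO hearts depended on the scaling of libraries, at -1.40% with XBP1(S) and -2.04% with ATF6α(N) on the scale of the choice but 16.6% and 1.81% after TMM normalization, and it is a description, since it rests on KO and WT libraries that chose the members. Members 1, 4 and 5, in order of mean level over all libraries, were at a higher CPM in every library of WT hearts carrying ATF6α(N) than in any plain WT library. This held for 0.195% of 11256 transcripts, which is not a like background, since the choice kept WT libraries below all KO libraries. It was not tested, and members 4 and 5 may count as 1, here and among the 13.

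Hearts were taken at 5 dpf (days post fertilization), and RNA was sequenced from 6 libraries of each of 6 genotypes, 36 libraries in all. KO medaka were AXER-/-. [KO + XBP1(S)] medaka were AXER-/-, XBP1(S/+), and [KO + ATF6α(N)] medaka were AXER-/-, ATF6(N/+). WT medaka carrying XBP1(S) were AXER+/+, XBP1(S/+), WT medaka carrying ATF6α(N) were AXER+/+, ATF6(N/+), and WT medaka were AXER+/+. The AXER-/- allele is a small frameshift deletion in the first exon, and each active factor was expressed from 1 edited allele of its own locus from fertilization on and not in the heart alone. The labels give the strain of all groups as HdrR, whereas the methods name cab as the WT fish. It is stated nowhere if each of the 6 libraries per genotype is a heart, a pool or a clutch of its own, so the p-values reflect how much these libraries vary, and that variation may be technical.

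AXER, also called SLC35B1, is a transporter of the ER membrane that exchanges cytosolic ATP for ADP from the ER lumen. Chaperones of the ER need this ATP to fold proteins, and unfolded proteins in the lumen set off the unfolded protein response. In this response, the sensor IRE1 splices XBP1 mRNA to give the transcription factor XBP1(S), ATF6α is cut in the Golgi to release its active fragment ATF6α(N), and PERK slows translation and raises ATF4. XBP1(S) and ATF6α(N) act on overlapping sets of genes for ER chaperones, for degradation of ER proteins and for secretion, whereas PERK and ATF4 act on genes of amino acid supply, oxidative stress and cell death. A transcript that rises on loss of AXER but stays under 1.5 times WT with XBP1(S) alone can therefore lie in any of these branches or in none. The values below do not assign it to one.

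Transcripts were selected on these values, as follows. CPM is the estimated number of reads of a transcript per 1000000 reads of its library. Of 37495 transcripts, 11256 had a mean of at least 5 CPM over all 36 libraries. Among these, 50 (0.444%) had a mean at least 1.5-fold higher in KO than in WT hearts, with the lowest KO library above the highest WT library. The 17 members are those of the 50 whose mean in WT hearts carrying XBP1(S) was less than 1.5-fold that in WT hearts, and the other 33 were at or above that limit. Ratios of KO to WT and of XBP1(S) to WT therefore describe the choice and were not tested. No identifier could be matched to a gene name (0 of 37495), so no member is assigned a gene or a function, the labelled tissue could not be checked against heart markers, and no pathway list could be counted. The members are numbered 1 to 17 by their mean CPM over all libraries, from high to low. Replicates are numbered by the order of their columns within a genotype, which pairs no libraries between genotypes. A member's number is only a name, since CPM is not scaled to transcript length and levels of different members were not compared. Member 1 is ENSORLT00000005468.2 and member 4 is ENSORLT00000047014.1, which had the smallest p of the 17 in the comparison within hearts carrying ATF6α(N).

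Libraries held 1850805 to 19619140 estimated reads, with the lowest median, 2477696, in [KO + XBP1(S)] hearts. The 10 most abundant transcripts took 22.4 to 25.7% of the reads of a KO library and 17.2 to 22.8% of a WT library, and this share enters every CPM value. On CPM, the median log2 ratio over the 11256 transcripts was -0.13 for KO over WT and -0.17 for XBP1(S) over WT in WT hearts, whereas it was 0.12 for [KO + XBP1(S)] over KO. The RNA is from whole hearts and, by the study's own account, from the erythrocytes in them, whose share in each library was not tested. In such bulk samples, fewer cells of a type and less RNA per cell cannot be told apart.

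**Figure D1:**
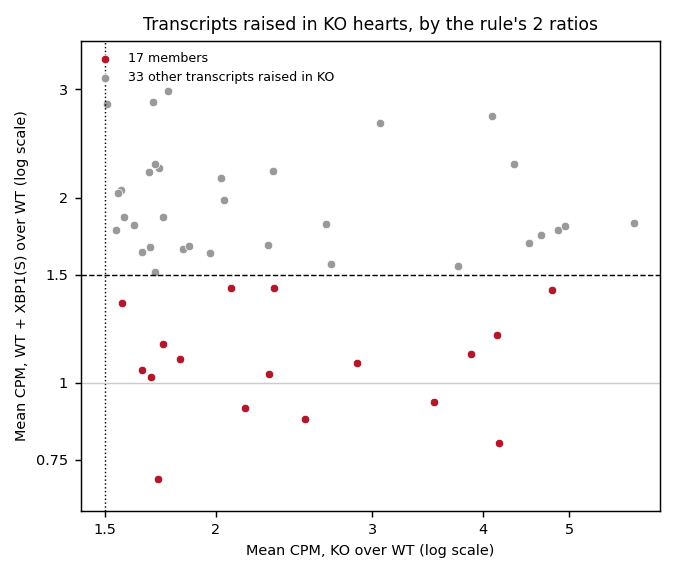
Mean CPM of the 50 transcripts raised in KO hearts, as the ratio of KO over WT (horizontal, log scale) and of WT carrying XBP1(S) over WT (vertical, log scale), with dashed and dotted lines at 1.5. The 17 members lie between 1.567 and 4.78 on the horizontal axis and between 0.698 and 1.43 on the vertical axis, and the other 33 lie at or above 1.5 on the vertical axis.

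KO over WT ratios of mean CPM ran from 1.567 to 4.78 with a median of 2.29, and XBP1(S) over WT ratios from 0.698 to 1.43 with a median of 1.08. At the limit for XBP1(S), members 9, 16 and 1 were just inside at 1.43, 1.43 and 1.41, whereas the nearest transcripts outside were at 1.51, 1.55 and 1.56. At the limit for KO over WT, member 7 was just inside at 1.567, member 2 at 1.65 and member 13 at 1.69, and the 2 transcripts that met all other conditions were outside at 1.42 and 1.41. In members 8, 7 and 2 the lowest KO library was only 1.002, 1.0025 and 1.008 times the highest WT library, and the 3 transcripts nearest outside were at 0.991, 0.990 and 0.982. The lowest mean over all libraries was 7.92 CPM inside, and the next transcript outside had 4.14 CPM.

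Membership depends on how libraries are scaled. With library sizes normalized by TMM, which scales libraries so that most transcripts do not differ, the same conditions chose 27 transcripts, and 12 of the 17 members were among them. Members 1, 7, 9 and 16 were then above the limit for XBP1(S), at 1.58, 1.60, 1.62 and 1.56 times WT, and in members 7 and 13 the KO and WT libraries overlapped. Members 8, 10 and 12 were below WT with XBP1(S) on either scale (0.786, 0.890 and 0.962 by TMM). Members 11 and 14 were below WT on CPM (0.932 and 0.911) but above it by TMM (1.09 and 1.04).

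**Figure D2:**
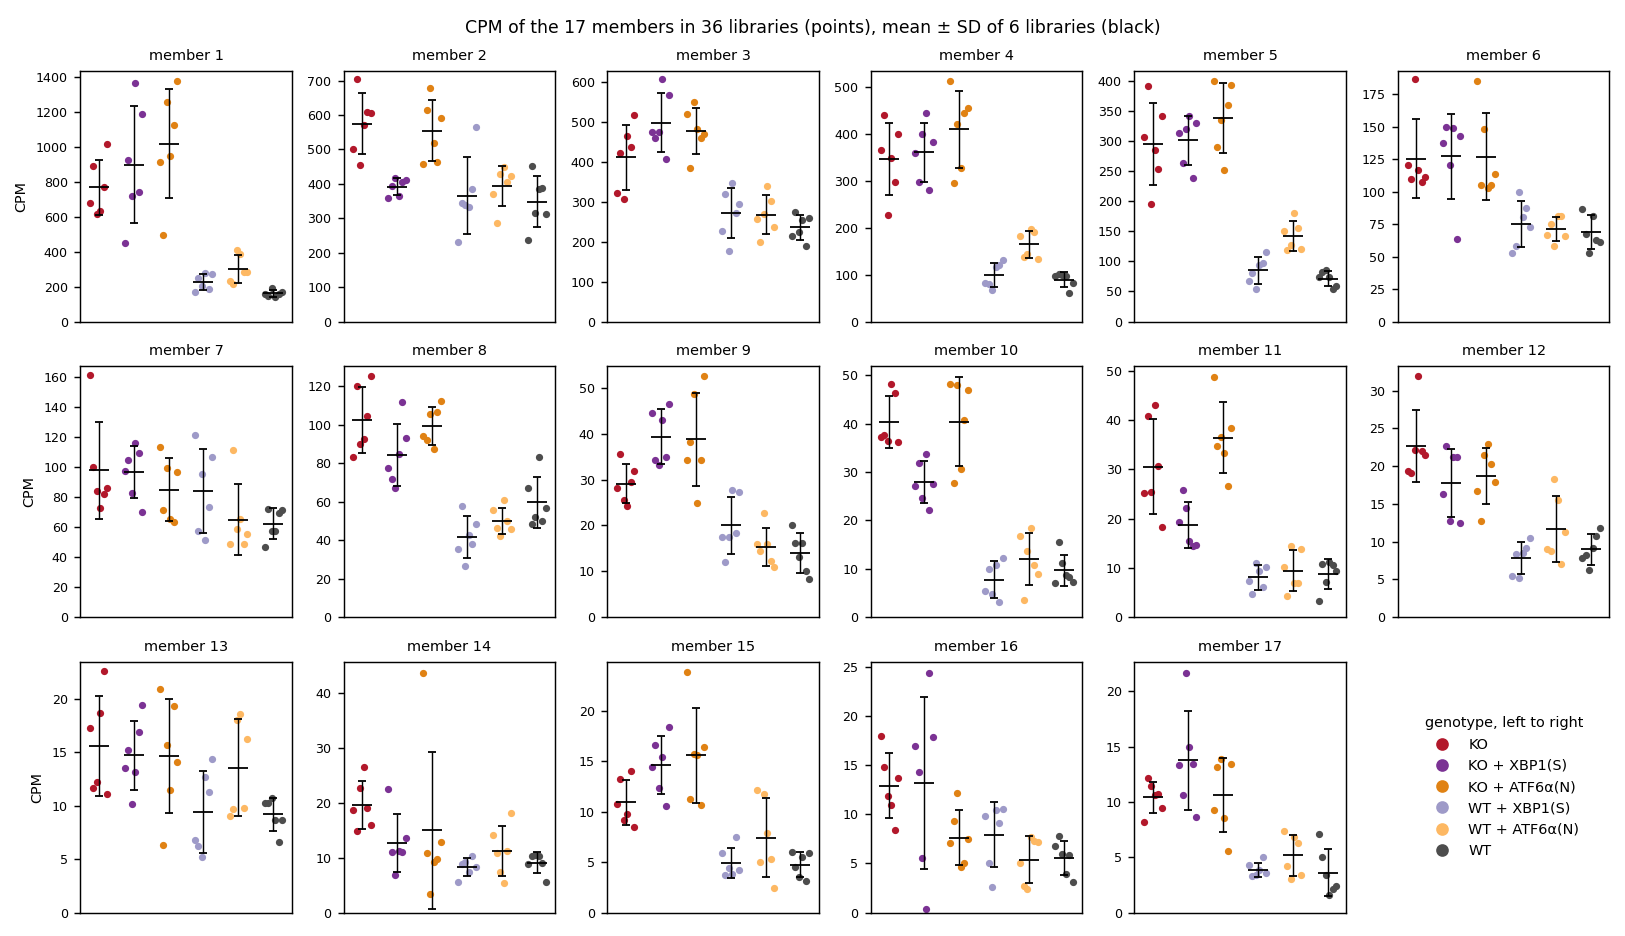
CPM of each member (1 panel each, vertical axis from 0) in every library (points), from left to right for the 3 KO genotypes (KO, with XBP1(S), with ATF6α(N)) and then for WT with XBP1(S), with ATF6α(N) and with neither, with the mean and SD of 6 libraries in black. Members 1, 4 and 5 are high in all 3 KO genotypes and intermediate in WT hearts carrying ATF6α(N), whereas member 2 is lower in [KO + XBP1(S)] hearts than in the other KO genotypes.

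Members 1, 4, 5, 10 and 11 had the highest KO over WT ratios, 4.78, 3.87, 4.15, 4.17 and 3.52. Member 1 had 614, 726 and 1016 CPM (lowest, median and highest library) in KO hearts, against 141, 158 and 191 CPM in WT hearts. In [KO + XBP1(S)] hearts it had 450, 835 and 1368 CPM, and in [KO + ATF6α(N)] hearts 497, 1039 and 1376 CPM. All 18 libraries without AXER thus lay above the WT range, and both factors left the member at or above its KO mean (1.17 and 1.33 times KO). In WT hearts, it had 171, 229 and 278 CPM with XBP1(S) and 216, 284 and 408 CPM with ATF6α(N). The libraries with ATF6α(N) were all above those of plain WT hearts, at a mean ratio of 1.88, and those with XBP1(S), held under 1.5 times WT by the choice, overlapped them at a ratio of 1.41 (1.58 by TMM).

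Member 4 had 227, 357 and 441 CPM in KO hearts, against 61.9, 97.4 and 100.99 CPM in WT hearts. With XBP1(S) the KO hearts had 281, 372 and 446 CPM, and with ATF6α(N) they had 296, 433 and 513 CPM, so that neither factor separated from KO. In WT hearts carrying XBP1(S) the member was at 68.3, 99.6 and 130.8 CPM, which overlapped plain WT hearts. In WT hearts carrying ATF6α(N) it was at 133, 163 and 198 CPM, on CPM above every library with XBP1(S) and every plain WT library. By TMM the libraries with XBP1(S) and with ATF6α(N) overlapped. The TMM factors were 1.01 in replicate 6 with XBP1(S) and 1.16 in replicate 3 with ATF6α(N). Its ratio of XBP1(S) to ATF6α(N) in WT hearts was 0.607.

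Member 5 followed the same order, with 196, 296 and 391 CPM in KO hearts, 238, 317 and 342 CPM in [KO + XBP1(S)] hearts and 253, 348 and 400.3 CPM in [KO + ATF6α(N)] hearts. It had 54.5, 87.6 and 116 CPM in WT hearts carrying XBP1(S), 119.1, 139 and 180.3 CPM in WT hearts carrying ATF6α(N) and 53.5, 73.5 and 86.1 CPM in WT hearts. Members 4 and 5 moved almost as a single measurement. Their log2 CPM correlated at r = 0.994 over the 36 libraries and at 0.945 after the mean of each genotype was removed, and the ratio of member 4 to member 5 stayed between 0.983 and 1.38 (median 1.19). Over all 136 pairs of members the median of this within-genotype correlation was 0.123, and 8 pairs exceeded 0.5. These correlations share libraries and depth and are given as a description. Estimates of members 4 and 5 were not whole numbers in 20 and 18 of the 36 libraries, more than for any other member (0 to 10), which is how salmon writes reads divided between similar sequences. In KO replicate 3 the estimates of members 4 and 5 were 1453.11 and 1256.89, and in [KO + XBP1(S)] replicate 6 they were 708.368 and 612.632. Their fractions complete each other there, as when reads are divided between the 2. In KO replicate 1 they did not, at 3260.63 and 2733. Whether the pair belongs to a single gene, and how many reads it shares, was not tested, so the pair may count as 1 member and not 2.

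**Figure D3:**
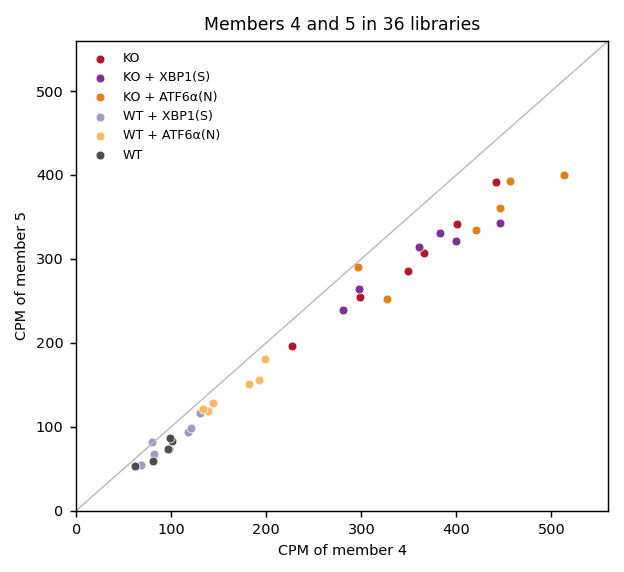
CPM of member 5 (vertical) against CPM of member 4 (horizontal) in 36 libraries, coloured by genotype, with the grey line at equal CPM. The points follow a single line with a ratio of member 4 to member 5 between 0.983 and 1.38, and the libraries of WT hearts carrying ATF6α(N) lie between those of the KO genotypes and those of WT hearts.

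Members 10 and 11 had a different order, with the level in [KO + XBP1(S)] hearts between those of KO and WT. Member 10 had 36.2, 37.4 and 48.3 CPM in KO hearts and 22.2, 27.3 and 33.8 CPM in [KO + XBP1(S)] hearts, which did not overlap. It had 27.7, 43.9 and 48.3 CPM in [KO + ATF6α(N)] hearts and 7.08, 8.50 and 15.5 CPM in WT hearts. Thus XBP1(S) went with a level 0.691 times that of KO, still above every WT library. Member 11 had 18.3, 28.0 and 43.1 CPM in KO hearts, 14.5, 17.3 and 25.9 CPM in [KO + XBP1(S)] hearts and 26.7, 35.7 and 48.7 CPM in [KO + ATF6α(N)] hearts, against 3.19, 9.97 and 11.1 CPM in WT hearts. In WT hearts carrying XBP1(S) or ATF6α(N), members 10 and 11 had means of 7.74 to 12.0 CPM and overlapped plain WT hearts.

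Member 2 came closest to WT with XBP1(S). It had 455, 589 and 705 CPM in KO hearts, 360.1, 400.5 and 416 CPM in [KO + XBP1(S)] hearts and 458, 555 and 679 CPM in [KO + ATF6α(N)] hearts, against 238, 349.6 and 451 CPM in WT hearts. All 6 [KO + XBP1(S)] libraries were below all 6 libraries of KO and of [KO + ATF6α(N)] hearts and lay within the WT range. They were also the most even of any member and genotype, with an SD of 6.21% of the mean, against 15.4% in KO and 21.5% in WT hearts. Its margin in the choice was narrow, as given above.

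Members 3, 6, 8 and 9 had smaller KO over WT ratios, 1.74, 1.82, 1.72 and 2.08. Member 3 was at 305 to 515 CPM in KO hearts, 408 to 606 CPM in [KO + XBP1(S)] hearts and 383 to 549 CPM in [KO + ATF6α(N)] hearts, against 190.01 to 275 CPM in WT hearts. Member 9 was at 24.1 to 35.5, 33.1 to 46.5 and 24.9 to 52.5 CPM in these 3 KO genotypes, against 8.34 to 20.2 CPM in WT hearts. On CPM, the means of both were therefore higher with either factor than in KO hearts alone, although these libraries overlapped. TMM shifted the log2 ratio of [KO + XBP1(S)] over KO by a median of -0.15 over the members. Member 8 was the only member whose mean CPM was below WT in both WT genotypes carrying a factor, at 41.6 ± 10.8 CPM with XBP1(S) and 50.03 ± 6.92 CPM with ATF6α(N), against 59.6 ± 13.4 CPM in WT hearts (SD, n = 6 each), although these libraries overlapped. Its KO genotypes were at 83.3 to 126 CPM in KO, 67.1 to 112 CPM in [KO + XBP1(S)] and 87.2 to 112 CPM in [KO + ATF6α(N)] hearts, against 48.6 to 83.2 CPM in WT hearts. Member 6 had means of 126, 127 and 127 CPM in the KO genotypes and 68.9 to 75.4 CPM in the AXER+/+ genotypes.

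The remaining members had KO over WT ratios of 1.567 (member 7), 2.52 (member 12), 1.69 (member 13), 2.16 (member 14), 2.29 (member 15), 2.32 (member 16) and 2.88 (member 17). Except for member 7, their means were between 3.61 and 22.7 CPM in every genotype, and as few as 1 read lay behind a library's value. Member 16 varied most in [KO + XBP1(S)] hearts, where replicate 4 held 1 read (0.385 CPM) and the highest library had 24.3 CPM. Member 14 had 3.33 to 43.5 CPM in [KO + ATF6α(N)] hearts, with 5 of the libraries at 12.9 CPM or less. Member 7 was at 84.1 ± 27.9 CPM in WT hearts carrying XBP1(S), nearly its level of 97.7 ± 32.3 CPM in KO hearts, against 62.3 ± 10.3 CPM in WT hearts (SD, n = 6 each). Member 15 was higher in [KO + XBP1(S)] and [KO + ATF6α(N)] hearts, at 14.6 ± 2.84 and 15.6 ± 4.71 CPM, than in KO hearts at 10.9 ± 2.25 CPM, against 4.76 ± 1.26 CPM in WT hearts (SD, n = 6 each), and these 3 KO genotypes overlapped.

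Whether loss of AXER raises the members was then asked in hearts that all carry ATF6α(N), whose libraries entered the choice only through the mean over all 36. In edgeR's quasi-likelihood test over 18076 transcripts, a call required more than a 1.5-fold change together with a p under 0.05 after Benjamini-Hochberg adjustment. All 17 members passed the filter on low counts. In [KO + ATF6α(N)] hearts, 13 of 17 members were called higher than in WT hearts carrying ATF6α(N), against 84 of all transcripts tested (0.465%). None was called lower, against 25 (0.138%). The 18076 include transcripts below the mean of 5 CPM required of members. These shares, and those of the edgeR calls below, are therefore not over a like set. Members 4 and 5, which may count as 1, are both among the 13. The log2 fold change was above 0 for all 17, from 0.27 to 2.15, with a median of 1.19 against -0.02 over all transcripts. Of the 33 other raised transcripts, 24 were called higher, with a median of 1.01, so a rise in this comparison was not particular to the members.

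Member 11 had 26.7 to 48.7 CPM in [KO + ATF6α(N)] hearts against 4.23 to 14.4 CPM in WT hearts carrying ATF6α(N), a log2 ratio of mean CPM of 1.95. In edgeR, which scales libraries by TMM, it rose by 2.15 on the log2 scale (standard error 0.28, edgeR adjusted p = 2.03e-06). Member 10 followed at 1.98 (standard error 0.24, adjusted p = 3.73e-07 from edgeR). Member 1 had 1.94 (standard error 0.19, adjusted p = 1.90e-09) and member 4 had 1.51 (standard error 0.14, adjusted p = 9.11e-10), both from edgeR. Members 5, 8 and 9 had log2 fold changes of 1.45, 1.19 and 1.55, and members 3 and 6 had 1.03 and 1.01. These 9 members were called in each of 18 alternative fits. Members 2 and 15 were called in 17 of them, with a log2 fold change of 0.71 for member 2.

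The calls of members 12 and 17 depended on single libraries and on the processing. Member 12 had a log2 fold change of 0.88 (adjusted p = 0.0265 from edgeR) and was called in 8 of 18 alternative fits. It was not called without [KO + ATF6α(N)] replicate 3, 4 or 5 or without replicate 1, 2, 5 or 6 of WT hearts carrying ATF6α(N), with adjusted p up to 0.113, and with all libraries kept it was lost without the filter on low counts (0.0774), with only the 2 genotypes fitted (0.0668) and after thinning (0.125). Member 17 had a log2 fold change of 1.27 (adjusted p = 0.0180 from edgeR) and was called in 12 of 18. It was lost without [KO + ATF6α(N)] replicate 2 or 6 or without replicate 3 or 6 of WT hearts carrying ATF6α(N), with adjusted p up to 0.106, and with all libraries kept it was lost after thinning (0.237) and had no adjusted p by DESeq2. Member 2 was lost without [KO + ATF6α(N)] replicate 2 (adjusted p = 0.0700 from edgeR).

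Members 7, 13, 14 and 16 were not called, with log2 fold changes of 0.53 (95% interval 0.02 to 1.04), 0.27 (-0.20 to 0.75), 0.53 (-0.19 to 1.246) and 0.71 (-0.13 to 1.54) and edgeR adjusted p of 0.729, 0.924, 0.892 and 0.860. All 4 intervals extend beyond a 1.5-fold rise, which is 0.58 on the log2 scale, and 3 of them include 0. Without [KO + ATF6α(N)] replicate 1, the value of member 14 turned to -0.04. Without replicate 2 of WT hearts carrying ATF6α(N), that of member 7 was 0.84 (adjusted p = 0.132 from edgeR). For 10 members, all libraries of [KO + ATF6α(N)] hearts were above all of WT hearts carrying ATF6α(N), against 0.551% of the 11256 transcripts.

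**Figure D4:**
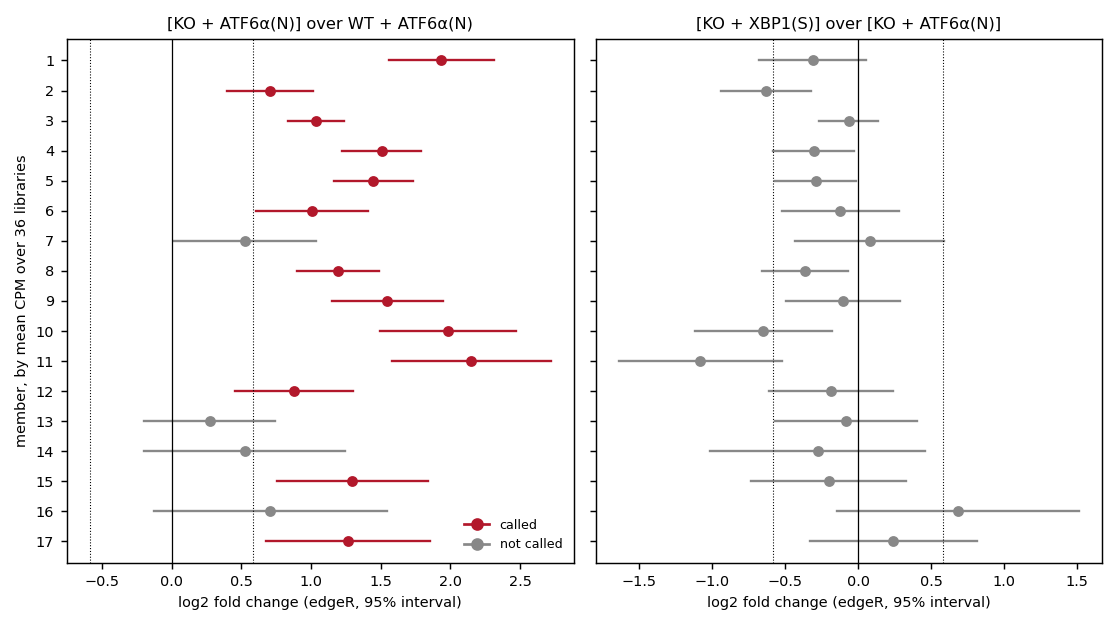
Log2 fold change of each member with its 95% interval from edgeR, for [KO + ATF6α(N)] over WT carrying ATF6α(N) (left) and [KO + XBP1(S)] over [KO + ATF6α(N)] (right), with dotted lines at a 1.5-fold change. On the left, 13 members are called (red) and all 17 lie above 0. On the right, none is called and 3 lie above 0.

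The active factors were compared directly in hearts that all lack AXER. Between [KO + XBP1(S)] and [KO + ATF6α(N)] hearts, 0 of 17 members were called in either direction by edgeR, against 22 transcripts higher (0.122%) and 8 lower (0.0443%) of 18076. At an unadjusted p under 0.05, 6 members were lower and 0 higher, against 1377 of the 18076 transcripts in both directions together. The 1377 were not counted by direction, so the 6 have no matching share. The members had a median log2 fold change of -0.20, against -0.00 for all transcripts, and 3 of them were above 0. DESeq2 called 2 members lower, a fit of the 2 genotypes alone called 1, and limma-voom called 0. Of the 33 other raised transcripts, 5 were called higher and 0 lower by edgeR, with a median of 0.23.

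The 6 members with an unadjusted p under 0.05 were 2, 4, 5, 8, 10 and 11, of which 4 and 5 may count as 1. Member 11 was at 14.5, 17.3 and 25.9 CPM in [KO + XBP1(S)] hearts, against 26.7, 35.7 and 48.7 CPM in [KO + ATF6α(N)] hearts, a log2 ratio of mean CPM of -0.97. In edgeR, which scales libraries by TMM, its log2 fold change was -1.08 (standard error 0.28, edgeR adjusted p = 0.122). Its adjusted p over 18 alternative fits ran from 0.0287, by DESeq2, to 0.286. Member 2, with the values given above, had a log2 ratio of mean CPM of -0.50. Its log2 fold change in edgeR was -0.63 (standard error 0.15, edgeR adjusted p = 0.0809), and its adjusted p ran from 0.0233, by DESeq2, to 0.312 over the alternatives. In these 2 members the libraries did not overlap, against 0.133% of the 11256 transcripts lower and 0.808% higher without overlap, and 0 members were higher. Members 10, 8, 4 and 5 had log2 fold changes of -0.65, -0.36, -0.30 and -0.29, with edgeR adjusted p of 0.426 to 0.628.

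For members 3, 6, 9 and 13, the 95% intervals of the difference between the factors were -0.26 to 0.14, -0.52 to 0.28, -0.50 to 0.29 and -0.57 to 0.40. A 1.5-fold difference in either direction, 0.585 on the log2 scale, lies outside these intervals. It also lies, by a narrow margin, outside those of members 4 and 5, -0.580 to -0.025 and -0.568 to -0.013, which do not include 0. The intervals of all other members reach beyond a 1.5-fold difference. None of these intervals is adjusted for the number of transcripts tested. Member 16 had the highest value, 0.68, with an interval of -0.15 to 1.52, and the spread of its [KO + XBP1(S)] libraries is given above. The depth of [KO + XBP1(S)] libraries was lower than that of [KO + ATF6α(N)] libraries, with medians of 2477696 and 5757233 estimated reads. With all libraries thinned to the smallest total, 0 members were called, as at full depth. Thinning only removes reads, so it cannot show whether low depth hid a difference.

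The level of each member in KO hearts with a factor was also set against KO and WT hearts, as a description, since the KO and WT libraries chose the members. The rescue rate is minus the log2 ratio of the KO genotype with a factor over KO, divided by the log2 ratio of KO over WT, times 100, so that 100% is a full return to WT, 0% is no return and a negative rate is a level farther from WT. With XBP1(S), the median over the 17 members was -1.40%, with 8 members above 0 and 9 below. Rates were above 50% for member 2 (76.2%) and member 14 (57.0%). Members 11, 8, 12 and 10 had rates of 39.4, 36.2, 26.5 and 25.9%, whereas members 9, 15 and 3 had -41.2, -35.1 and -34.6%. With ATF6α(N), the median was -2.04%, with 7 members above 0, and only member 16 exceeded 50%, at 62.6%. Members 15 and 9 again had the lowest rates, -42.7 and -39.01%.

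The spread among members was far wider than the gap between the medians of the factors. Rates with XBP1(S) depended on the scaling. With TMM the same 17 members had a median of 16.6% with XBP1(S) and 1.81% with ATF6α(N), and again 2 and 1 were above 50%. All 3 of the KO genotypes share the WT libraries as reference here, and both rates share the KO libraries. Libraries of [KO + XBP1(S)] hearts lay wholly below those of KO hearts for 2 members (2 and 10), against 0.0888% of the 11256 transcripts. Libraries of [KO + ATF6α(N)] hearts lay wholly above those of KO hearts for 0 members (0.107%). Against WT hearts, [KO + XBP1(S)] libraries were wholly higher for 10 members (1.17%) and [KO + ATF6α(N)] libraries for 12 (0.524%). The choice required every KO library above every WT library, which favours such separation from either. The shares over all transcripts are therefore not a like background, and nothing is read from these counts.

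Loss of AXER could also be read within hearts carrying XBP1(S), although the libraries of WT hearts carrying XBP1(S) took part in the choice and no test was made. In [KO + XBP1(S)] hearts, 11 of 17 members had all libraries above those of WT hearts carrying XBP1(S), against 0.729% of the 11256 transcripts. The choice capped the level in WT hearts carrying XBP1(S), so this share is not a like background. Nothing is read from the count. The ratios of mean CPM ran from 1.07 (member 2) to 3.96 (member 1), with a median of 2.03. Member 4 had a ratio of 3.62 and member 5 of 3.54, against 2.49 and 2.38 within hearts carrying ATF6α(N). The choice held WT hearts carrying XBP1(S), but not those carrying ATF6α(N), under 1.5 times WT, so nothing is read from this difference. Members 2, 7, 13, 14 and 16, and member 6 through a single [KO + XBP1(S)] library at 63.9 CPM, overlapped.

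In WT hearts, ATF6α(N) separated wholly from plain WT hearts for 3 members (1, 4 and 5, at ratios of 1.88, 1.84 and 1.998), against 0.195% of the 11256 transcripts. Members 4 and 5 may count as 1. The choice kept WT libraries below all KO libraries, so the share over all transcripts is not a like background. No test was made, because the libraries of WT hearts and of WT hearts carrying XBP1(S) both chose the members, so that a level near WT with XBP1(S) was fixed by the choice. On CPM, WT hearts carrying XBP1(S) were also wholly below WT hearts carrying ATF6α(N) for 2 members, 4 and 5 (0.844% of the transcripts). By TMM the libraries of both members overlapped. Nothing is read from this count, for the same reason. Over all 17 members the ratio of ATF6α(N) to WT had a median of 1.23, against 1.06 over the 11256 transcripts, and it was below 1 for members 8 and 16 only. The ratio of XBP1(S) to ATF6α(N) in WT hearts had a median of 0.751 over the members and 0.839 over the 11256 transcripts. Each of these ratios has a side that the choice held low in the members. The medians over the 11256 transcripts are therefore not a like background, and nothing is read from either gap.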

How the data were processed

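Heart RNA at 5 dpf was made into Lasy-Seq libraries, a method that indexes every sample at reverse transcription and then pools them. The authors trimmed reads with fastp 0.21.0, mapped them with BWA 0.7.17-r1188 and deposited salmon's estimated counts per library of 37495 medaka transcripts. The notes name the mouse build GRCm38, whereas the identifiers are of medaka. Of the deposited estimates, 1.88% had a fraction (more than 1e-06 from a whole number), and they were rounded before testing. Depth was 1850805 to 19619140 estimated reads per library. Over 90 pairs of libraries of 1 genotype, the lowest chi-square per degree of freedom was 6.23, far above sampling noise, so each library was counted.

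CPM for the choice of members was the estimate over the column total times 1000000. Tests were made in R 4.3.3 with edgeR 4.0.16 (filterByExpr by genotype, TMM, robust quasi-likelihood fit with 1 mean per genotype over all 36 libraries), and p-values were adjusted over all 18076 transcripts tested. Each standard error is the log2 fold change over the root of its F value. Alternatives were DESeq2 1.42.0, limma-voom (limma 3.58.1), no filter on low counts, a fit of the 2 genotypes alone, removal of the 10 most abundant transcripts, omission of single libraries and other limits in the rule. For a test, each library of the 2 genotypes compared was left out in turn. For the rule, these were the libraries of KO, WT and WT carrying XBP1(S) hearts. For a rescue rate, those of KO hearts with the factor were added. Thinning of all libraries to the smallest total was added after seeing the data. Correlations used log2(CPM + 1). The members and lists were chosen with earlier results of these data known. Identifiers are printed for the 2 members with the smallest p in [KO + ATF6α(N)] against WT carrying ATF6α(N), and the others are named by their order in mean CPM. No sequence is shown, and lists of pathway genes and cell type markers were not used, because no identifier matched the table of names (RefSeq, ASM223467v1).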

Additional observations from a re-analysis of the deposited data

Results flagged for a closer look

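Single libraries stood apart from the other 5 of their genotype in 7 of 102 combinations of member and genotype. The measure was the gap to the nearest library as a share of the range (Dixon's test). Chance gives about 1 in 20 for values that were not selected. Libraries of KO, WT and WT carrying XBP1(S) hearts chose the members, so that rate does not hold for them. Nothing is read from the count. Member 6 was at 187 CPM in KO replicate 3 (nearest library 121 CPM) and at 63.9 CPM in [KO + XBP1(S)] replicate 5 (nearest 121 CPM). Member 7 was at 161 CPM in KO replicate 1 (nearest 100.2 CPM) and at 111 CPM in replicate 2 of WT hearts carrying ATF6α(N) (nearest 65.4 CPM). Member 12 was at 31.9 CPM in KO replicate 4 (nearest 22.2 CPM). Member 14 was at 43.5 CPM in [KO + ATF6α(N)] replicate 1 (nearest 12.9 CPM) and at 5.56 CPM in WT replicate 6 (nearest 8.86 CPM). These 7 values fell in 7 different libraries and in 4 members.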

How the results depend on the processing

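In [KO + ATF6α(N)] against WT hearts carrying ATF6α(N), 10 to 13 members were called higher over 18 alternatives, with 11 to 13 when 1 library was left out, 12 by DESeq2, 13 by limma-voom and 10 with all libraries thinned to the smallest total. The median log2 fold change was 1.05 to 1.26. Between [KO + XBP1(S)] and [KO + ATF6α(N)] hearts, 2 members were called by DESeq2 and 1 with only the 2 genotypes compared, whereas 0 were called in the other 16 alternatives, the 12 omissions of a library included (0 to 0). The cause was not tested. The median log2 fold change there was -0.27 to -0.13. The rule gave 27 members on TMM-normalized library sizes and 11 when a ratio of at least 2 was required for KO over WT. With 1 library left out it gave 15 to 26, with 26 without KO replicate 3 and all 17 members among them. It gave 24 without the 10 most abundant transcripts, 14 and 18 with a mean of at least 10 or 1 CPM and 13 with a lower limit on XBP1(S) over WT. For XBP1(S), the median rescue rate was 31.3% on TMM-normalized sizes over the 27 members chosen there. With 1 library left out it was -2.79% (over 22 members) to 9.81% (over 21 members). The median for ATF6α(N) was -9.46% (over 11 members) to 11.8% (over 26 members) over all alternatives. Most of these settings chose the members anew, so the ranges do not describe the same 17. No paired analysis was possible because the columns carry no replicate number, and the numbers used here only give the order of columns within a genotype.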
